A study of Caenorhabditis elegans with 2 samples.

Results

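The ced genes act in programmed cell death and in the removal of dying cells in *C. elegans*. Those examined here were 10 of 19973 protein-coding genes on the nuclear chromosomes of build ce11 (WBcel235), namely ced-1, ced-2, ced-3, ced-4, ced-5, ced-6, ced-7, ced-9, ced-10 and ced-12. They were selected on their role and on the signal of regions near them in these same data, so what follows describes them and carries no test. For each gene, every region was taken whose summit fell in the promoter window, which runs here from 1500 bp before to 500 bp after a coding 5′ end, or elsewhere in the gene body.

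The regions come from chromatin immunoprecipitation sequencing (ChIP-seq) of AHR-1, the worm relative of the aryl hydrocarbon receptor, a bHLH-PAS transcription factor. The study has a single group of 2 biological replicates and no second condition. The embryos were late-stage hermaphrodites of strain OP562, which carries unc-119(tm4063) III and the transgene wgIs562 encoding AHR-1 with GFP and FLAG at its C terminus. Collection was 3.5 h after the eggs were bleached for synchronization, and chromatin of whole organisms was precipitated with an antibody against GFP. The sources used here do not give the promoter that drives the transgene or the state of the endogenous ahr-1 gene. Whole embryos mix all cell types, so the cells that carried a region cannot be told apart. The lists hold no expression values, and the stage label was not checked against marker genes.

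The list called on both replicates pooled held 13858 regions, with signal from 26.7 to 1026 and a median of 32.8. The IDR list, kept by how alike regions rank in the replicates, held 479 regions and is the 479 pooled regions of highest signal, down to 69.2. Replicate 1 had 22949 regions with signal from 15.3 to 610.7, and replicate 2 had 23313 with signal from 10.1 to 413.5, both before thresholding. Signal is the value that the authors' caller gave each region. It has its own scale in each list, so signals were not compared between lists. Ranks count from the highest signal of a list and are given with its length. The sources used here do not give read depth.

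In a worm cell fated to die, the BH3-only protein EGL-1 binds the Bcl-2-like inhibitor CED-9 and frees CED-4, an Apaf-1-like adaptor that activates the caspase CED-3. Neighbouring cells then engulf the corpse through partly redundant signalling arms. In the first, the receptor CED-1, the ABC transporter CED-7 and the adaptor CED-6 act together. In the second, CED-2, CED-5 and CED-12, the worm CrkII, DOCK and ELMO proteins, activate the Rac GTPase CED-10. Most of the somatic deaths in the worm take place in the embryo. Below, ced-3, ced-4 and ced-9 are together called the killing genes, although CED-9 inhibits killing.

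Strong AHR-1-GFP regions lay upstream of 3 of the 10 genes: ced-9 among the killing genes, and ced-2 and ced-5 in the arm that activates CED-10. Over all coding genes, 2.58% had an IDR summit in the promoter window. The summits counted for ced-9 and ced-2 lay nearer to the 5′ ends of other genes, jmjd-4 and npp-8. The reference sequences of 201 bp centred on the pooled summits of these 3 regions are shown because they are the members' only regions in the IDR list. The sequence at the strongest ced-3 region is shown because it holds GCGTG far below that list's limit. The letters are from the RefSeq WBcel235 genome, and capitals mark GCGTG.
ced-9 window, chrIII:10334037-10334237, + strand: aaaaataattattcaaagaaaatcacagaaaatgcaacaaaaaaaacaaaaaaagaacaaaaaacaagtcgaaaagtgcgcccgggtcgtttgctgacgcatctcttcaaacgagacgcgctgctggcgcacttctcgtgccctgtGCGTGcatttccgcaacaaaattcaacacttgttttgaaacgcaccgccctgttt
ced-2 window, chrIV:1595881-1596081, + strand: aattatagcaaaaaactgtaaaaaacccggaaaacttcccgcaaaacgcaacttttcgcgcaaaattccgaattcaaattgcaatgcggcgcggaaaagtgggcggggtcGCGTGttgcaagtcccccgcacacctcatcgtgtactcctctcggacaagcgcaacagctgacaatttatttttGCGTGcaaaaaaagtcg
ced-5 window, chrIV:10483836-10484036, + strand: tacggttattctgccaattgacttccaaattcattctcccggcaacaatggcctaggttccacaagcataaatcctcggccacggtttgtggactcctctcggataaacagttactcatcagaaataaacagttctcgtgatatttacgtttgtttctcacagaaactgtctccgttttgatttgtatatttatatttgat
ced-3 window, chrIV:13199702-13199902, + strand: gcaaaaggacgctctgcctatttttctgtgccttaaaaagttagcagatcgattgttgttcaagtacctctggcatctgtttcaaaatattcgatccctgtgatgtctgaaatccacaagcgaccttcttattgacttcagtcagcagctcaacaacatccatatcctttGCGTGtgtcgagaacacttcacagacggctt

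GCGTG is the core of the element that AHR binds with its partner ARNT in mammals. It was searched on both strands within 100 bp of each summit. The ced-2 window held 2 matches, centred 12 and 86 bp from the summit, and both also spell TNGCGTG, a longer form of the same element that contains GCGTG. The ced-9 window held 1 match, centred 48 bp from the summit. It also held GCGCAC in 2 places. The ced-5 window held none of these letters. Among the 9 pooled regions of ced genes below the IDR limit, 1 held GCGTG, a region in the coding sequence of ced-3 with the match 72 bp from its summit, again as TNGCGTG. In all, 3 of the 12 pooled regions at ced genes held GCGTG. The share was 40.3% of all 479 IDR windows of the same length and 16.9% of all 13858 pooled windows. TNGCGTG was in 9.81% of IDR windows and 4.68% of pooled windows, and GCGCAC in 20.3% of IDR windows and 5.51% of pooled windows. GC content was 42.3% in the ced-9 window, 47.3% in the ced-2 window and 39.3% in the ced-5 window, beside medians of 43.8% over IDR windows and 38.8% over pooled windows.

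The ced-2 and ced-5 windows share a run of 12 bases on the same strand, noticed when the sequences were compared: ACTCCTCTCGGA. It begins 44 bp after the summit in the ced-2 window and 8 bp before the summit in the ced-5 window. The run was present in 13 of the 479 IDR windows (2.71%), where its centre lay 2 to 84 bp from the summit. Of the pooled windows below the IDR limit, 28 of 13379 held it (0.209%). It was also in 43 of 19973 windows of the same length centred 150 bp upstream of a coding gene's 5′ end (0.215%). Since 2 of those IDR windows are the ones from which the run was taken, these shares describe it and test nothing.

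The killing genes gave 1 strong promoter region, weak regions in the body of ced-3 and next to nothing at ced-4. The ced-9 gene encodes the inhibitor that keeps CED-4 in check. Its region at III 10333915 to 10334358 had a pooled signal of 80.3, rank 367 of 13858. The matching signals were 45.6 in replicate 1, rank 436 of 22949, and 32.1 in replicate 2, rank 458 of 23313. The replicate summits lay 2 and 65 bp from the pooled summit, so both replicates placed a high-ranking region there. This is partly built in, since the pooled list was called on both replicates and the region is in the IDR list. Replicate 2 had a second region in the same window, with a signal of 20.0 and rank 2298. The −log10 q value of the pooled region was 2.87, as it was for the ced-2 and ced-5 regions. A region upstream of rab-7 at pooled rank 26 had the same value, so it does not order these regions. In the body of ced-9, replicate 1 had a region with a signal of 22.8, rank 6839, and replicate 2 had one with a signal of 10.7, rank 20223, with none in the pooled list.

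That region lies closer to other genes than to ced-9. Its summit lay 1035 bp upstream of ced-9 but 140 bp upstream of mev-1, which encodes the cytochrome b subunit of succinate dehydrogenase and ends 3 bp before ced-9 on the same strand. The pair is known as an operon transcribed from upstream of mev-1, also called cyt-1, although no operon annotation was used here. On the other strand, the summit lay 119 bp upstream of jmjd-4, a jumonji-domain gene, and 1477 bp upstream of T07C4.12. The region thus sits between the divergent genes mev-1 and jmjd-4, with ced-9 the downstream partner of mev-1.

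The caspase gene ced-3, on chromosome IV at 13198261 to 13204137, had 2 pooled regions, both inside the gene. The stronger had a pooled signal of 28.8, rank 10922 of 13858, with its summit in coding sequence. Regions overlapping it had a signal of 23.3 in replicate 1, rank 6252 of 22949, and 20.3 in replicate 2, rank 2159 of 23313, with summits 83 and 240 bp away. The weaker region, in an intron, had a pooled signal of 27.5, rank 12759, and was overlapped by a region of replicate 1 only. In the promoter window of ced-3, replicate 1 had 1 region, with a signal of 16.7 and rank 18679, and no region was listed there in replicate 2 or the pooled list. The ced-4 gene, at III 4852325 to 4855171, had no region in the pooled list or in replicate 1. Its 1 region in replicate 2 lay in an intron, with a signal of 13.1 and rank 11919 of 23313.

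**Figure D1:**
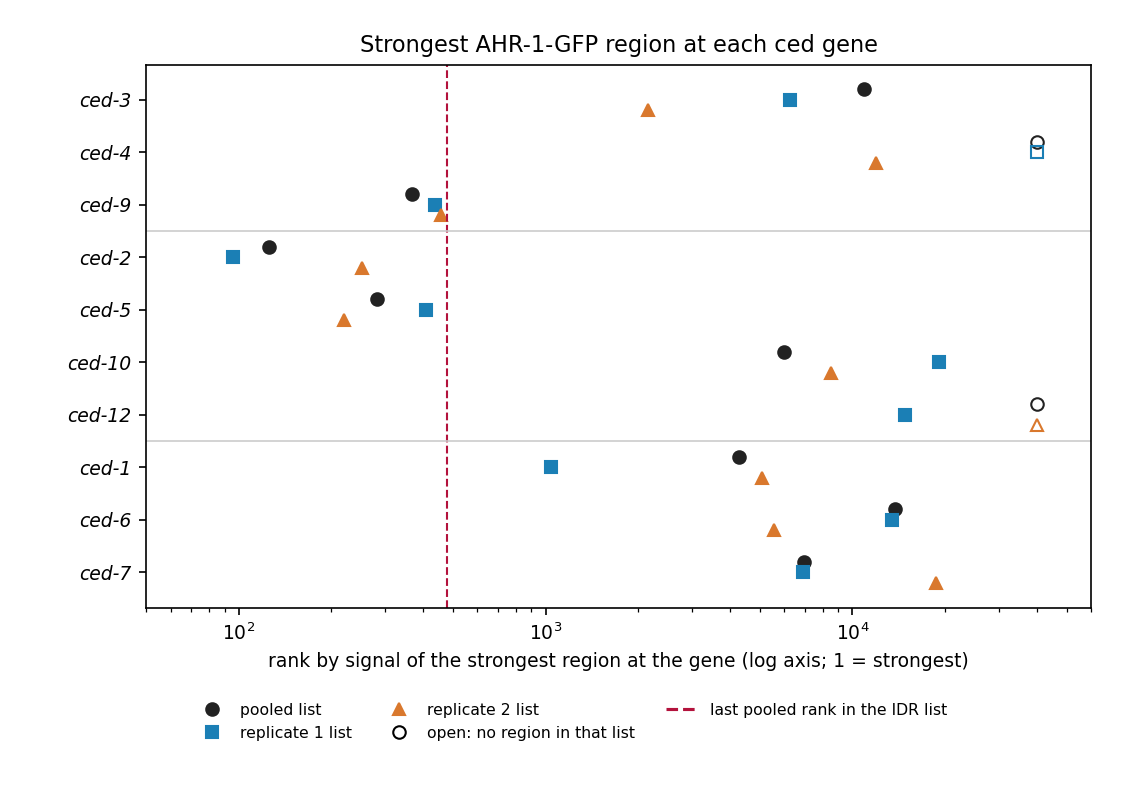
Rank by signal of the strongest region at each ced gene in the pooled list (black circles), replicate 1 (blue squares) and replicate 2 (orange triangles), on a log axis where 1 is the strongest; open symbols at the right edge mark a list with no region, and the dashed line marks rank 479, the last pooled rank in the IDR list. From top to bottom are the killing genes, the arm that activates CED-10 and the CED-1 arm. Only ced-9, ced-2 and ced-5 lie left of the line, in each of the 3 lists.

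Of the genes that activate CED-10, ced-2 and ced-5 had the strongest regions of all 10 ced genes, while ced-10 and ced-12 had weak regions or none. The ced-2 gene encodes the worm CrkII adaptor. Its region at IV 1595759 to 1596202 had a pooled signal of 131.5, rank 126 of 13858. In replicate 1 the region had a signal of 85.4, rank 96 of 22949, and in replicate 2 a signal of 41.9, rank 253 of 23313, with summits 2 and 63 bp from the pooled one. Replicate 1 had a further region in this window, with a signal of 27.0 and rank 3378. Inside ced-2, replicate 1 had a region with a signal of 18.2 and replicate 2 a separate one with a signal of 13.3, neither in the pooled list. The summit lay far out in the promoter window of ced-2, 1337 bp upstream of its 5′ end. It was 157 bp upstream of npp-8, a nuclear pore gene on the opposite strand. The 5′ ends of ced-2 and npp-8 are 1494 bp apart.

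The ced-5 gene encodes the DOCK-family protein that acts with CED-12 to activate CED-10. Its region at IV 10483714 to 10484157 had a pooled signal of 90.7, rank 282 of 13858. The signal was 46.5 in replicate 1, rank 407 of 22949, and 44.3 in replicate 2, rank 220 of 23313. Summits in replicates 1 and 2 lay 5 and 1 bp from the pooled one. The pooled list was called on these same replicates, so this closeness is partly built in. In the body of ced-5, replicate 2 had 2 further regions in coding sequence, with signals of 16.1 and 11.7, that no other list held. The summit lay 174 bp upstream of ced-5 and 279 bp upstream of F01D4.5 on the opposite strand. The 5′ ends of that pair are 453 bp apart, and ced-5 is the only ced gene whose own 5′ end was the nearest coding 5′ end to its IDR summit.

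**Figure D2:**
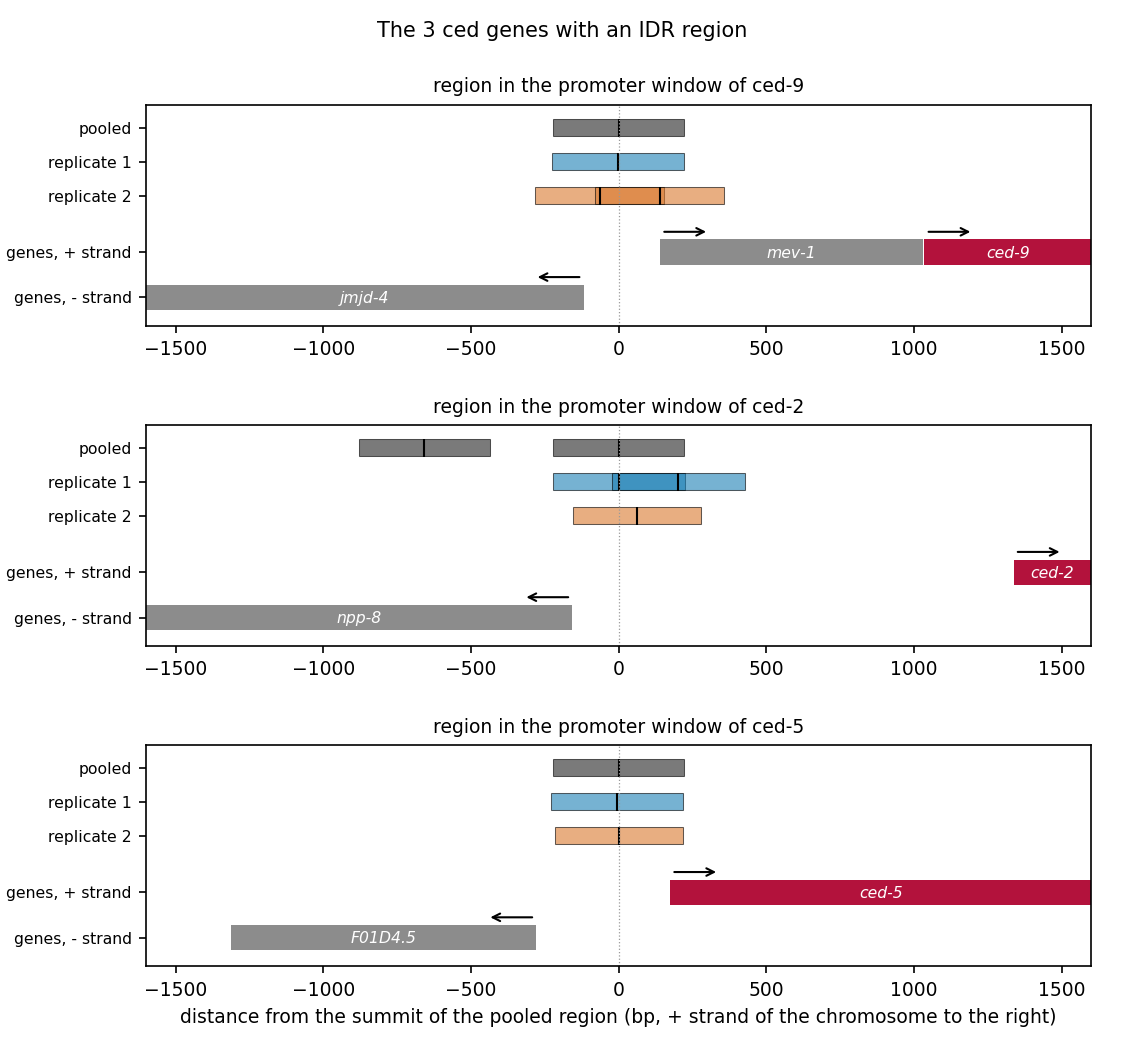
Regions of the pooled list, replicate 1 and replicate 2 (boxes, with a tick at each summit) and genes (bars, arrows show the direction of transcription; the named ced gene is red) around the pooled summits of the ced-9, ced-2 and ced-5 regions, against distance from the summit in bp. The nearest 5′ end is that of jmjd-4 (119 bp) in the first, npp-8 (157 bp) in the second and ced-5 (174 bp) in the third. A weaker pooled region inside npp-8 had a signal of 27.1.

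The other genes of that arm stood far lower in the lists. The ced-10 gene, which encodes the Rac GTPase, had 1 pooled region, in an intron at IV 3508224 to 3508667, with a signal of 34.1 and rank 5974 of 13858. A region of replicate 2 overlapped it, with a signal of 14.4 and rank 8546 of 23313, and none of replicate 1 did. In the ced-10 promoter window, replicate 1 had a region with a signal of 16.5 and rank 19140, and replicate 2 had a region elsewhere in the window with a signal of 10.5 and rank 21167. The replicates thus listed no common region there. The ELMO gene ced-12 had no pooled region, and its 1 region in replicate 1 lay in coding sequence with a signal of 18.2 and rank 14820 of 22949.

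The CED-1 arm had no IDR region and no pooled region in a promoter window. Each of its 3 genes had at least 1 pooled region in the gene body. Over all coding genes, 3.02% had an IDR summit in window or body. A pooled summit lay in the promoter window of 29.9% of them, and in window or body of 41.8%. The arm has only 3 genes, so nothing is read from these counts. The receptor gene ced-1, the longest of the 10 at 16552 bp, had 4 pooled regions, all in introns, with signals of 37.0, 35.7, 28.0 and 27.1. The strongest ranked 4256 of 13858 and overlapped a region of replicate 1 with a signal of 21.1, rank 9136, and a region of replicate 2 with a signal of 10.2, rank 22932 of 23313. The pooled regions with signals of 35.7 and 28.0 overlap each other, and the same region of replicate 1, with a signal of 34.8 and rank 1038, overlapped both. No region of replicate 2 did. In replicate 1 this was the highest-ranking region at the 7 ced genes without an IDR region. The region with a pooled signal of 27.1, rank 13290, was overlapped in replicate 1 only, with a signal of 17.9 and rank 15559. At the 5′ end of ced-1 itself, replicate 1 had a region with a signal of 21.3, rank 8746, and replicate 2 had one with a signal of 11.5, rank 17194, and the pooled list had none.

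The pooled regions at ced-7 and ced-6 lay in coding sequence. The transporter gene ced-7 had 1 pooled region, at III 9576382 to 9576825, with a signal of 32.8 and rank 6950 of 13858. It was listed in both replicates, with a signal of 22.7 and rank 6883 in replicate 1, a signal of 11.1 and rank 18735 in replicate 2, and summits 7 and 1 bp away. The adaptor gene ced-6 had 1 pooled region, at III 5597437 to 5597880, with a signal of 26.8 and rank 13812, near the end of the pooled list. Replicate 2 had a region there, with a signal of 16.2 and rank 5536 of 23313, while the 1 region of replicate 1, with a signal of 18.8 and rank 13469, lay elsewhere in the gene. In the ced-6 promoter window, replicate 2 had 1 region, with a signal of 15.4 and rank 6759, that no other list held.

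**Figure D3:**
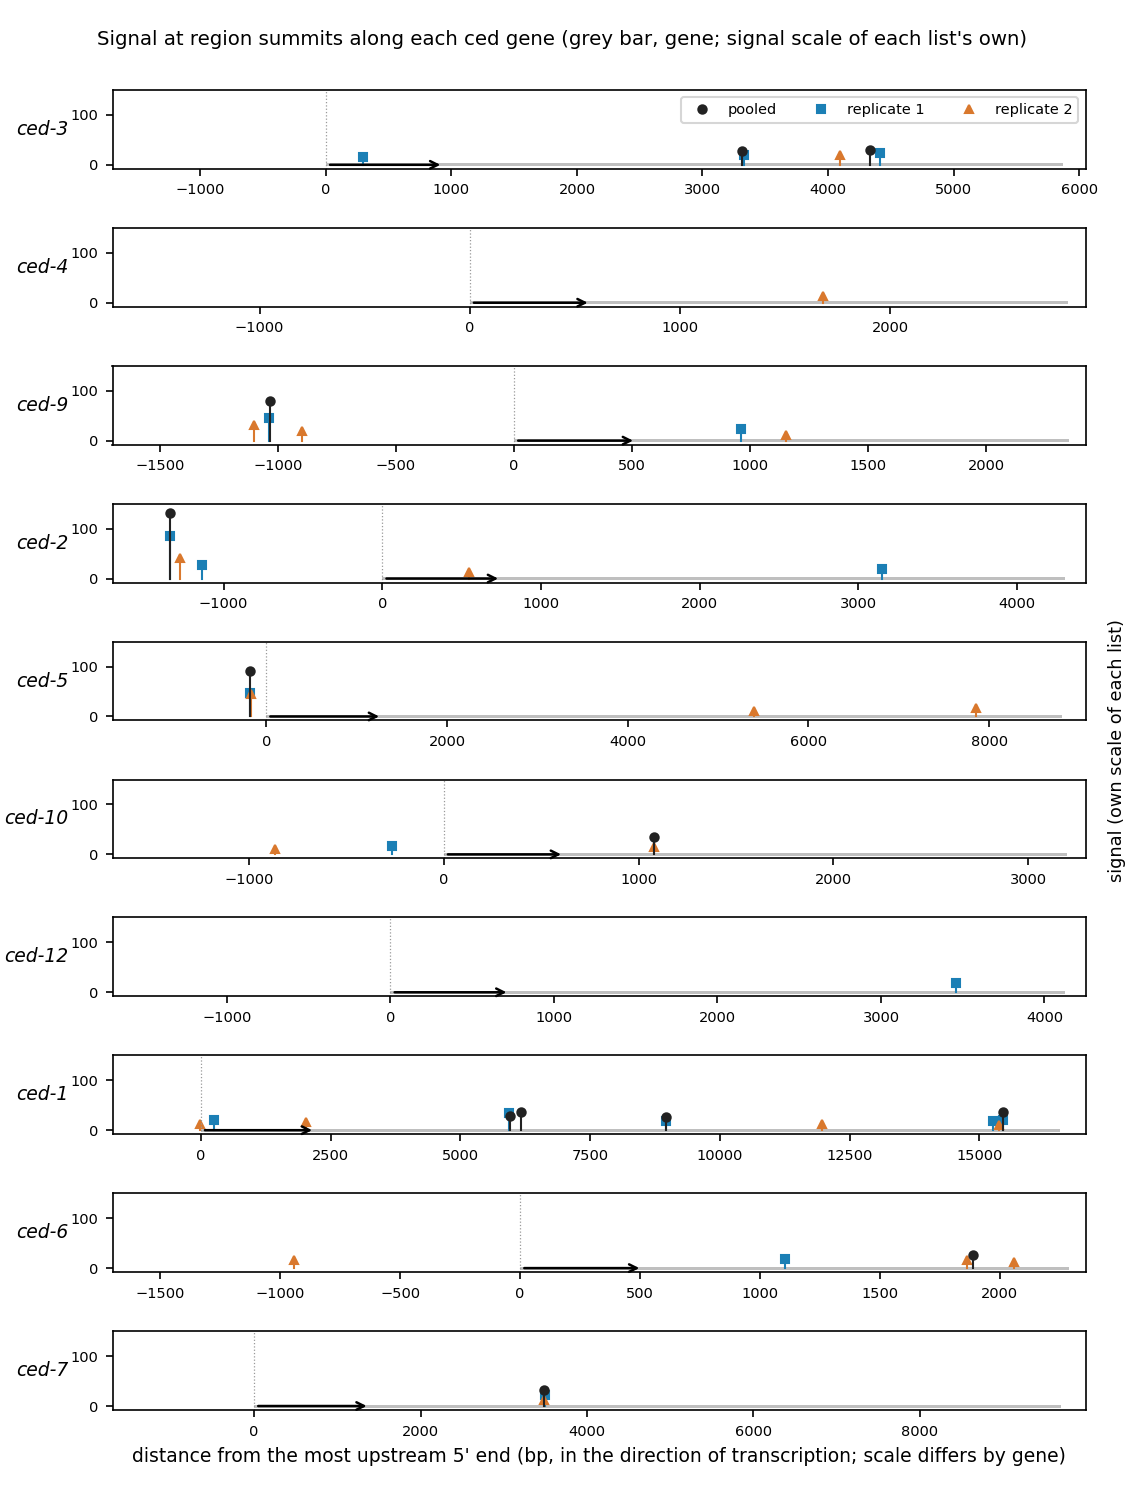
Signal of each region, on its own list's scale, at its summit along each ced gene (grey bar), for the pooled list (black circles), replicate 1 (blue squares) and replicate 2 (orange triangles); the x axis is the distance in bp from the most upstream 5′ end in the direction of transcription and differs in scale by gene. The tall black symbols are upstream of ced-9 (80.3), ced-2 (131.5) and ced-5 (90.7), and the remaining pooled regions, at most 37.0, lie inside genes.

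Counted over the 10 genes, 3 had a pooled summit in the promoter window, beside 29.9% of all coding genes. With gene bodies included 8 of 10 had one, beside 41.8% of all coding genes. The same 3 genes had an IDR summit in the promoter window, beside 2.58% of all coding genes, and with gene bodies the count was still 3, beside 3.02%. Since the genes were selected on these signals, nothing is read from the differences. Replicate 1 had a region at 9 genes, all but ced-4, beside 57.4% of all coding genes. Replicate 2 had a region at 9 genes, all but ced-12, beside 58.9%. A region in both lists occurred at 8 genes, but any region in window or body counted, so it need not be a shared region. At ced-6 and ced-10 no region of replicate 1 overlapped a region of replicate 2. The share of all coding genes with a region in both lists was not computed. Long genes have more room for summits in their bodies: the median length was 4216.5 bp for the ced genes and 2027 bp for all coding genes. Per 10 kb of gene body, the ced genes held 1.50 pooled summits and all coding genes held 1.36.

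The killing genes and the engulfment genes each held both strong and weak regions, the strong one among the killing genes being that counted for the inhibitor gene ced-9. A pooled region was present at 2 of 3 killing genes and 6 of 7 engulfment genes, beside 41.8% of all coding genes. An IDR region was present at 1 of 3 and 2 of 7, beside 3.02%. Within engulfment, the arm that activates CED-10 had IDR regions at 2 of 4 genes and the CED-1 arm at 0 of 3. The share of all coding genes with an IDR region was 3.02%. Of the IDR summits counted for ced genes, only that of ced-5 had its own gene's 5′ end nearest. Those counted for ced-9 and ced-2 lay nearer to jmjd-4 and npp-8. The median of the strongest pooled signal, with genes without a region set at 0, was 28.8 for the killing genes and 34.1 for the engulfment genes. Over genes with a region only, the order turned round, with 54.5 for the killing genes and 35.5 for the engulfment genes, the killing value being the midpoint between ced-3 and ced-9. All coding genes had a median of 0, or 35.1 over those with a region. The strongest signals ran from no region to 80.3 among the killing genes and from no region to 131.5 among the engulfment genes, so the groups overlap, and the difference was not tested.

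The replicates listed each of the strong ced regions and fewer of the weak ones. This is partly built in, since the IDR list rests on agreement of the replicates. Each of the 3 IDR regions was overlapped in both replicates, within the 479 strongest regions of each. Of the 9 pooled regions below the limit, 3 were overlapped in both replicates (33.3%), 4 in replicate 1 only and 2 in replicate 2 only. The −log10 q values of these 9 ran from 0.018 (ced-6) to 0.174 (ced-1), so none stands clear of background by that value. Over all 13379 pooled regions below the limit, 7187 were overlapped in both (53.7%), 3928 in replicate 1 only, 2109 in replicate 2 only and 155 in neither. The nearest values on either side of the IDR limit among the ced genes were 80.3 for ced-9, inside, and 37.0 for ced-1, outside, with the limit at 69.2.

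All 3 IDR regions at ced genes lay between divergent coding genes. Over the whole lists, 192 of 479 IDR summits (40.1%) and 2102 of 13858 pooled summits (15.2%) did. No tRNA, snoRNA, snRNA, miRNA or rRNA gene lay within 250 bp of any pooled summit at a ced gene. Same-strand neighbours within 500 bp occurred upstream of ced-4, ced-9, ced-10 and ced-12. That limit was set here, and whether such neighbours share a transcript was not tested. F26A1.1 ends 414 bp before ced-4 and had no pooled region in its own promoter window. The ESCRT gene tsg-101 ends 103 bp before ced-10 and had 3 pooled regions in its promoter window, the strongest with a signal of 33.0 and rank 6801. The casein kinase gene csnk-1 overlaps the start of ced-12 and also had 3, the strongest with a signal of 39.3 and rank 3340. Of these upstream neighbours, mev-1 alone had an IDR region. Downstream on the same strand, C35D10.8 begins 46 bp after ced-4, ttr-15 324 bp after ced-9, the SET-domain gene set-23 35 bp after ced-2 and Y106G6E.4 102 bp after ced-12. Of these 4, only ttr-15 had a pooled region in its promoter window, with a signal of 28.3 and rank 11553.

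The remaining upstream neighbours are farther away. C48D1.9 ends 3254 bp from ced-3, ucr-1 1369 bp from ced-6 and C48B4.3 1021 bp from ced-7, all on the same strand. In their own promoter windows, ucr-1 had 2 pooled regions, the strongest with a signal of 37.4 and rank 4076, C48D1.9 had 1 with a signal of 28.2 and rank 11675, and C48B4.3 had none. The divergent gene dnj-27, which encodes a thioredoxin-like chaperone of the endoplasmic reticulum, starts 9698 bp from ced-1 and had a pooled region in its own promoter window with a signal of 39.3 and rank 3338. That region is not in the promoter window of ced-1.

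Besides the 10 genes, 45 other genes of the same process were examined, from triggers of death to digestion of the corpse. They include ced-8 and ced-13, which are not among the 10. In window or body, a pooled region was present at 32 of the 45, beside 41.8% of all coding genes, and an IDR region at 1, beside 3.02%. The 45 were not matched to all coding genes in gene length. The gene with the IDR region was the late endosomal GTPase gene rab-7, which acts in phagosome maturation. Its region at II 11967657 to 11967802 had a pooled signal of 216.9, rank 26 of 13858, above that of any ced gene. The signal was 137.1 in replicate 1, rank 24, and 89.1 in replicate 2, rank 28. The summit lay 799 bp upstream of rab-7 and 186 bp upstream of W03C9.5, the gene with the nearest 5′ end, so here too the named gene was not the closest. The median of the strongest pooled signal over genes with a region was 35.5 for the 10 ced genes and 37.5 for the 45 others.

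The counts by stage stand beside the same 41.8% of all coding genes, and these short lists were neither matched for gene length nor tested. The death triggers and regulators had a pooled region at 4 of 5 genes, led by the transcription factor genes ces-1 (signal 49.0, rank 1287) and ces-2 (33.3, rank 6531). The BH3-only gene egl-1 had a pooled region with a signal of 29.9 and rank 9657, 975 bp upstream of its 5′ end, and its relative ced-13 had none. Among caspase relatives and later steps of killing, 4 of 6 had one, with the strongest at csp-2 (41.5, rank 2612), a caspase homologue, and drp-1 (33.2, rank 6581), a dynamin-related mitochondrial fission gene. The latter summit lay 492 bp upstream of drp-1 but 34 bp upstream of fem-1, and replicate 2 had no region at drp-1. For DNA degradation the count was 4 of 10, led by the cyclophilin gene cyn-13 (44.9, rank 1815) and the nuclease gene crn-1 (35.7, rank 4926). The cyn-13 summit lay 935 bp upstream of cyn-13 but 388 bp upstream of uaf-2. For corpse recognition and engulfment signalling the count was 9 of 10. This list includes long genes, such as unc-73 of 32440 bp with 11 pooled regions and tat-1 of 22818 bp with 8. There the Trio-like exchange factor gene unc-73 had an intronic region with a signal of 66.3, rank 522 and just under the IDR limit, and the kinase gene abl-1 had one with a signal of 55.5 and rank 829. For phagosome maturation the count was 11 of 14, with rab-7 far above the rest.

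**Figure D4:**
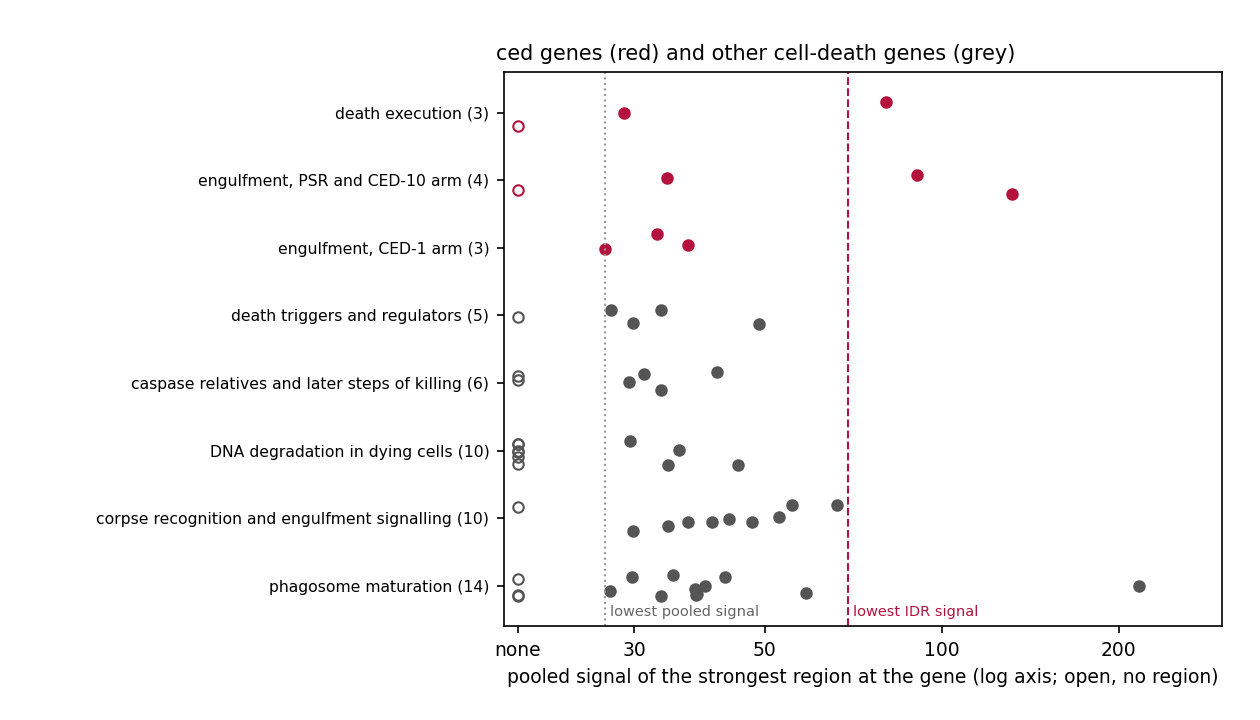
Pooled signal of the strongest region at each ced gene (red) and each of the 45 other cell-death genes (grey), by stage with the number of genes in parentheses, on a log axis; open circles are genes with no pooled region, the dotted line is the lowest pooled signal (26.7) and the dashed line the lowest IDR signal (69.2). The 4 genes right of the dashed line are ced-9, ced-5, ced-2 and rab-7. Points are spread vertically only to separate them.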

How the data were processed

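ChIP-seq peak lists of AHR-1-GFP were used for 2 biological replicates, for both replicates pooled and after IDR, all on build ce11. Per the deposited file descriptions, the authors called regions against a control library, once per replicate and once on both replicates together, and filtered these calls by IDR. The control library, the signal tracks and the lists on another build were not used here. The sources used here do not give the peak caller, its settings, the IDR threshold or the depth. The antibody is anti-GFP per the labels' description, followed here, although another label names ahr-1. The authors' deposited lists give each region's signal and its −log10 q value. Signal served to order and describe regions inside each list and was not compared between lists. Most regions share a fixed width within a list (444 bp in the pooled list), so width was not used.

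Summits were assigned with the Ensembl release 115 annotation of WBcel235, and sequence came from the RefSeq genome of that build. A summit counts for every gene whose window or body holds it. Divergent partners, same-strand neighbours within 500 bp and small RNA genes within 250 bp of a summit were recorded, and an operon annotation was not used here. The work used Python 3.11.15, numpy 2.4.6, pandas 2.3.3 and matplotlib 3.10.9. The assignment was tested on simulated data. The members, the 45 other pathway genes and the motifs were chosen with earlier results of these data known. Named genes are all members, their neighbours and, from each other list, genes with an IDR region or else the 2 of highest pooled signal. The genes egl-1 and ced-13, and the shared run of 12 bases, were picked out after the values and sequences had been seen. Alternatives were other windows, overlap in place of the summit, 1 5′ end per gene, stronger regions only and each replicate's list alone. Counting each summit only for the nearest 5′ end was added after seeing the data.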

Additional observations from a re-analysis of the deposited data

How the results depend on the processing

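The counts changed with how far upstream a summit may lie. With a window of 500 bp upstream to 200 bp downstream, only ced-5 kept a pooled or IDR region in its window, so the counts in the promoter window fell to 1 of 10 in both lists, and the IDR count with gene bodies was also 1. The pooled count with gene bodies was then 6, without ced-2 and ced-9. The median strongest pooled signal was then 0 for the killing genes and 32.8 for the engulfment genes. With 3000 bp upstream, 5 genes had a pooled region in the window and the engulfment median was 37.0. Counting each summit only for the nearest coding 5′ end, an alternative added after seeing the data, left 1 gene, ced-5, in both lists. Over all coding genes, that rule left 4685 with a pooled region and 314 with an IDR region in the window. With the stronger pooled regions only, 5 genes had a pooled region in window or body and the killing median was 0. Over genes with a region only, the medians were 54.5 for the killing genes and 35.5 for the engulfment genes. With either replicate's list alone, 6 genes had a region in the promoter window, beside 3 in the pooled list. The 6 were not the same genes, with ced-3 in replicate 1 only and ced-6 in replicate 2 only. The number with a region in window or body was 9, and the number with a region among that replicate's 479 strongest was 3. Shares over all coding genes were not computed for the other windows, the stronger regions, or a replicate's promoter windows and 479 strongest regions. Counting by overlap of at least 1 bp, or from the most upstream 5′ end alone, left each count and median as it was. GCGTG was in 3 of 12 regions within 100 bp of the summit, 2 within 50 bp and 4 within 250 bp. In the same order, the shares were 16.9%, 9.85% and 32.1% of all pooled windows. Of all IDR windows they were 40.3%, 29.0% and 57.6%. Of 50 recomputed strongest signals of single genes, 44 were equal to those reported and 6 differed. A region kept under an alternative keeps its signal, so this equality is largely built in. The values that differed include those of ced-9 and ced-2, which fell to 0 with 500 bp upstream. The medians have no value from a replicate's list, since its signal is on another scale. No paired analysis was possible because there was 1 group. The lists give neither depth nor the signal outside listed regions, so a gene without a region is only one not listed.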
